A study of Mus musculus with 6 samples.

Results

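The transcripts of the mitochondrial genome were described together with the nuclear genes that copy, transcribe and process it. The members were the columns of the deposited count table whose symbol starts with mt-, which gave 15 genes, and 19 nuclear genes taken from a fixed list of mitochondrial DNA replication, transcription and RNA processing factors. These 34 genes were 34 of the 17831 genes in the table. The 15 mt- genes were 13 mRNA genes and 2 rRNA genes of the 37 genes annotated on the mitochondrial genome. The 22 mitochondrial tRNA genes were not analysed here. The rule used no measured value, but the list was chosen with earlier results of these data known. All 34 genes passed the filter on low counts.

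RNAseq was performed on group 2 innate lymphoid cells (ILC2s) of mouse lung, 3 libraries from WT mice and 3 from mice lacking SIRPα, an inhibitory receptor that binds CD47. The WT mice are labelled CB57BL/6 and the SIRPα KO mice SIRPalphatm1Ynliu/J, so the knockout is in every cell of the animal and not in ILC2s alone. Mice of 6 to 8 weeks received 0.5 µg of rmIL-33, an ILC2-activating cytokine, by the nose on 3 days. On day 4 the ILC2s were sorted, and RNA was taken after a culture in rmIL-7 and rmIL-2. Both groups had the same challenge and culture, and the culture is given as 18 h in one place and 24 h in another. The cDNA was made and amplified from 10 pg of RNA per library (SMARTer Ultra Low Input RNA v3).

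The mitochondrial genome is a small circle that encodes subunits of respiratory complexes I, III, IV and V, both rRNAs of the mitochondrial ribosome, and tRNAs. It is read into long transcripts from both strands, and the mRNAs and rRNAs are released by cutting out the tRNAs that lie between them. Every protein needed for this, from the polymerase to the nucleases and the poly(A) polymerase, is encoded in the nucleus and imported.

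The libraries held 13980491 to 19051504 reads on genes. Of the 13623 genes tested with edgeR's quasi-likelihood test, 11.7% had an adjusted p under 0.05, 5.94% higher and 5.81% lower in SIRPα KO, and the libraries of the groups did not overlap for 42.8%. The labels give WT replicates 1 and 2 one code and SIRPα KO replicates 2 and 3 another, and the series text speaks of duplicates. The 3 replicates of the labels were kept. The chi-square per gene between libraries, near 1 for sampling noise alone, was 28.1 for the WT pair of one code and 60.9 and 74.6 for the other WT pairs, and 10.1 for the SIRPα KO pair of one code and 7.88 and 11.3 for the others. Libraries amplified separately from one sample can also exceed sampling noise, so this does not show that the libraries are separate samples. If a code marks one sample, the adjusted p values are too small, and results with such libraries summed are given for the members that were called. Sirpa was at 8.57, 6.83 and 4.83 CPM (the read count scaled to the size of the library) in WT and 3.07, 4.46 and 1.74 CPM in SIRPα KO (adjusted p = 0.115 by edgeR), so its reads were fewer in SIRPα KO but not absent. Summed ILC2 markers (12 of 12 detected, Il5 the most abundant) were at 14840 to 16000 CPM in WT and 20720 to 21290 CPM in SIRPα KO. B cell markers (6 of 6 in the table) were at 216 to 479 CPM in WT and 23.1 to 84.6 CPM in SIRPα KO. T cell markers (5 of 6) were at 17.99 to 23.5 and 4.78 to 5.56 CPM, with 2 of them under 1 CPM in every library, NK cell markers (4 of 4) at 9.89 to 21.9 and 1.41 to 3.73 CPM, and the erythroid gene Hba-a1 at 5.48 to 8.94 and 1.79 to 2.15 CPM. For the other marker sets the groups overlapped. Macrophage and dendritic cell markers (8 of 8) were at 41.2 to 129 CPM in WT and 75.2 to 118 CPM in SIRPα KO. Epithelium and endothelium markers (4 of 5) were at 60.7 to 85.9 and 46.8 to 107 CPM. Mast cell and basophil markers (4 of 4) were at 7.07 to 20.8 and 0.868 to 10.4 CPM, and neutrophil markers (2 of 4) under 1 CPM. The part of these other cells in the differences below was not tested.

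Mitochondrial genes took a small share of the reads in both groups. They held 0.552%, 0.951% and 1.02% of the reads in WT replicates 1, 2 and 3, and 0.680%, 0.714% and 0.763% in SIRPα KO replicates 1, 2 and 3. WT replicate 1 was the lowest library of all and WT replicates 2 and 3 the highest, so the groups overlapped. The means were 0.841% ± 0.252 (SD, n = 3) in WT and 0.719% ± 0.0417 (SD, n = 3) in SIRPα KO (exact permutation test, two-sided, p = 0.4, where 3 against 3 cannot go below 0.1). The spread between libraries was wide in WT and narrow in SIRPα KO. In bulk libraries, fewer mitochondria-rich cells and less mitochondrial RNA per cell cannot be told apart.

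**Figure D1:**
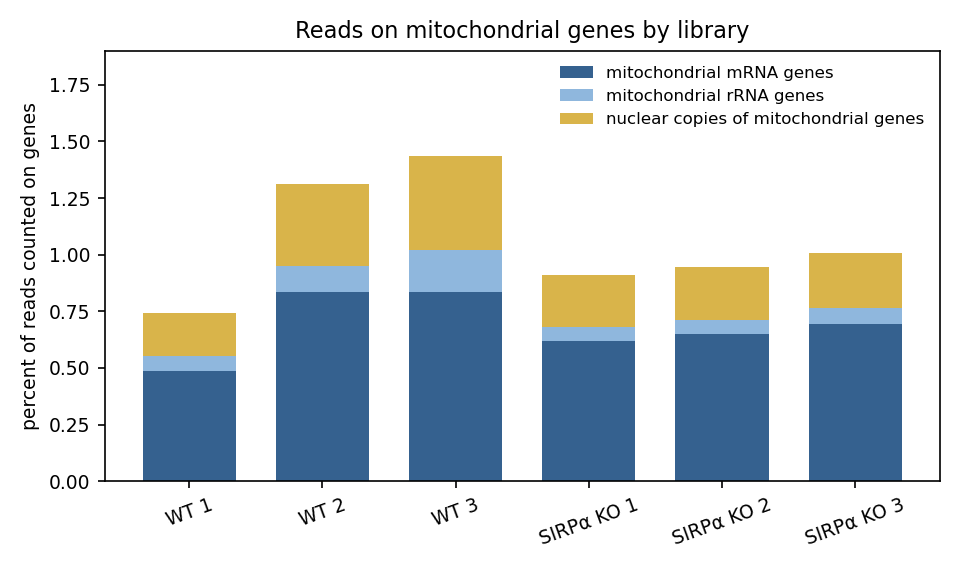
Percent of the reads counted on genes (vertical axis) that fell on mitochondrial mRNA genes, mitochondrial rRNA genes and the nuclear copies of mitochondrial genes, stacked for each of the 6 libraries. WT replicate 1 has the shortest bar, with 0.743% in all, and WT replicates 2 and 3 the tallest, with 1.31% and 1.43%, while the 3 SIRPα KO libraries lie between 0.912% and 1.01%.

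None of the 13 mitochondrial mRNAs passed the test. No mRNA was called by edgeR or by DESeq2, 1 (mt-Nd6) had an unadjusted p under 0.05 in edgeR, as 32% of all genes did, and the groups overlapped for all 13. The fitted log2 fold changes were above 0 for 2 genes and below 0 for 11, with a median of -0.16 beside -0.03 for all genes tested, and ran from -0.70 to 0.17. After a correction for GC content and transcript length, 8 of the 13 were above 0 and the median was 0.06, so the group had no direction that held across the fits.

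Complex I has 7 mitochondrial subunits, and mt-Nd6, the one mRNA encoded on the other strand (GRCm38, chromosome MT from 13552 to 14070), had the lowest fitted value of the mRNAs. It was at 53.0, 97.3 and 131 CPM in WT replicates 1, 2 and 3 and at 53.8, 58.3 and 61.3 CPM in SIRPα KO. The log2 fold change was -0.70 (standard error, SE, 0.29, adjusted p = 0.146 by edgeR), and -0.23 after the GC and length correction. The genes mt-Nd5 and mt-Nd6 overlap at their ends on opposite strands, and whether strand was used in counting is not given. mt-Nd2 was at 162, 258 and 340 CPM in WT and 160, 173 and 188 CPM in SIRPα KO (log2 fold change -0.54, SE 0.24, adjusted p = 0.166 by edgeR). For both genes WT replicate 1 lay at the level of the SIRPα KO libraries and the other WT libraries lay above it.

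WT replicate 1 was also the lowest WT library for the other 5 complex I mRNAs. mt-Nd1 was at 881, 1344 and 1418 CPM in WT and 1128, 1023 and 1110 CPM in SIRPα KO. mt-Nd3 was at 17.4, 50.1 and 67.7 CPM in WT and 30.6, 32.7 and 35.9 CPM in SIRPα KO. mt-Nd4 was at 282, 469 and 582 CPM in WT and 344, 345 and 351 CPM in SIRPα KO. In these 3 genes the SIRPα KO libraries fell inside the range of the WT libraries. mt-Nd4l, which shares a transcript with mt-Nd4, was nearly without reads of its own, at 1.26 to 3.58 CPM in WT and 2.05 to 2.62 CPM in SIRPα KO. mt-Nd5 was at 212, 393 and 289 CPM in WT and 305, 318 and 319 CPM in SIRPα KO, and its log2 fold change of 0.08 was below 0 under 4 of 27 alternatives.

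Of the mRNAs for complexes III, IV and V, that of cytochrome b was the only one with a fitted value above 0. mt-Cytb was at 784, 1303 and 1190 CPM in WT and 1255, 1191 and 1238 CPM in SIRPα KO, with a log2 fold change of 0.17 (adjusted p = 0.534 by edgeR) that was -0.02 without WT replicate 1. mt-Co1, the catalytic subunit of cytochrome c oxidase, was at 1066, 1751 and 1565 CPM in WT and 979, 1476 and 1567 CPM in SIRPα KO. mt-Co2 was at 254, 551 and 578 CPM in WT and 401, 393 and 443 CPM in SIRPα KO. mt-Co3 was at 463, 920 and 1095 CPM in WT and 551, 591 and 606 CPM in SIRPα KO (log2 fold change -0.50, SE 0.27, adjusted p = 0.239 by edgeR). For all 3 oxidase subunits the SIRPα KO libraries lay within or near the WT range, whose lower end was WT replicate 1. The ATP synthase subunits behaved alike, with mt-Atp6 at 628, 1093 and 1145 CPM in WT and 970, 845 and 972 CPM in SIRPα KO. mt-Atp8, which overlaps mt-Atp6, was at 43.8, 80.5 and 78.0 CPM in WT and 59.6, 57.0 and 54.1 CPM in SIRPα KO.

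WT replicate 1 was the lowest WT library for all 15 mitochondrial genes, where it was the lowest WT library for 28.0% of all genes tested. The median ratio of its mitochondrial levels to those of WT replicate 2, which carries the same code, was 0.545, and to those of WT replicate 3 it was 0.477. Among the SIRPα KO libraries the same ratios were 0.924 to 0.977. Without WT replicate 1, 6 of the 13 mRNAs passed the threshold, all lower in SIRPα KO (mt-Co2, mt-Co3, mt-Nd2, mt-Nd3, mt-Nd4 and mt-Nd6), with a median log2 fold change of -0.45, where 7.89% of all genes passed in that fit. Without WT replicate 2 or 3 none passed. The call on the mitochondrial mRNAs therefore rested on 1 WT library, and why that library was low was not tested.

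**Figure D2:**
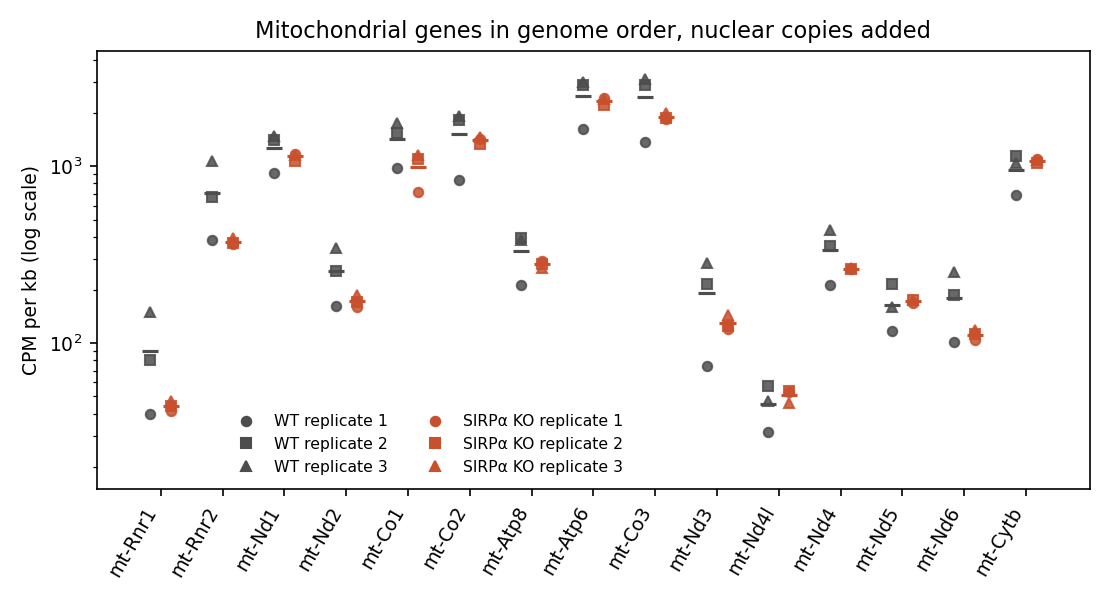
CPM per kb of transcript (vertical axis, log scale) of the 15 mitochondrial genes in genome order, with the reads of the nuclear copies added. Points are libraries, the marker shape gives the replicate, and the line is the mean of 3. WT replicate 1 (grey circles) is the lowest WT point in every column, and the SIRPα KO points lie close together for every gene but mt-Co1, where replicate 1 is lower.

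Compared per length, and with the reads of the near-identical nuclear copies described below added, the mRNA genes covered a wide range of read levels. mt-Atp6 and mt-Co3 had the highest means in both groups, 2487 ± 755 and 2455 ± 945 CPM per kb (SD, n = 3) in WT and 2354 ± 111 and 1911 ± 77.4 CPM per kb in SIRPα KO. mt-Co2, mt-Co1, mt-Nd1 and mt-Cytb followed in WT, at means of 1526, 1429, 1269 and 955 CPM per kb. The WT libraries of neighbours in this order overlapped, and in SIRPα KO every library of mt-Atp6 was above every library of mt-Co3. mt-Atp8, mt-Nd4, mt-Nd2, mt-Nd3, mt-Nd6 and mt-Nd5 had means of 165 to 335 CPM per kb in WT, and mt-Nd4l had the lowest, 45.2 ± 12.8 CPM per kb in WT and 51.0 ± 4.23 CPM per kb in SIRPα KO. These are levels of reads assigned to a gene and not levels of separate mRNAs. mt-Nd4l shares a transcript with mt-Nd4, which was at 335 CPM per kb in WT, and mt-Atp8 overlaps mt-Atp6.

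Some mitochondrial mRNAs are complete only once the poly(A) polymerase Mtpap has added a tail. The last 30 bases of 4 mRNAs follow (GRCm38, 5′ to 3′, coding strand), with the stop codon or the lone last T in capitals.
mt-Cytb: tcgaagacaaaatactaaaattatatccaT
mt-Co3: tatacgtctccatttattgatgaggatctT
mt-Nd4: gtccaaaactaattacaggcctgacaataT
mt-Nd6: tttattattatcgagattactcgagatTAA
The first 3 are the 3 of 13 mRNAs whose annotated end is a lone T, which the tail turns into a stop codon. mt-Nd6 is one of the 10 annotated to end in a whole codon. These are counts of annotated ends. The annotated TAG of mt-Nd1 and that of mt-Nd2 each overlap the next tRNA gene, on the same strand, by 2 bases. The log2 fold changes of the 3 genes annotated with a lone T were 0.17, -0.50 and -0.36, so they did not share a direction.

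Both mitochondrial rRNAs had lower fitted values than any of the mRNAs. mt-Rnr2, the large ribosomal RNA, was at 605, 1060 and 1703 CPM in WT and 573, 586 and 620 CPM in SIRPα KO. mt-Rnr1, the small ribosomal RNA, was at 38.2, 77.0 and 143 CPM in WT and 39.4, 42.2 and 44.8 CPM in SIRPα KO. WT replicate 1 again lay at the SIRPα KO level, WT replicate 3 was far above it, and the groups overlapped for both. The log2 fold change was -0.92 (SE 0.32, adjusted p = 0.0926 by edgeR) for mt-Rnr2 and -1.03 (SE 0.41, adjusted p = 0.129 by edgeR) for mt-Rnr1. DESeq2, which called 26.9% of its genes, called both (adjusted p = 0.0244 and 0.0489), as did edgeR without WT replicate 1 (adjusted p = 0.0314 and 0.0387). Without WT replicate 3 the log2 fold changes were -0.48 for mt-Rnr2 (adjusted p = 0.154 by edgeR) and -0.44 for mt-Rnr1 (adjusted p = 0.308), so the size of the fitted values rested largely on that library. With libraries of one code summed the adjusted p values were 0.169 and 0.192. How fully the cDNA preparation captured the rRNAs beside the mRNAs was not tested, so these are levels of reads.

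The makeup of the mitochondrial reads separated the groups where their total did not. As a share of the reads on mitochondrial genes and their copies, the rRNAs took 8.71%, 8.72% and 12.7% in WT and 6.65%, 6.63% and 6.59% in SIRPα KO. The SIRPα KO values were all below the WT values, with a difference of means (SIRPα KO minus WT) of -3.42 percentage points (exact permutation test, two-sided, p = 0.1, the smallest that 3 against 3 allows). The SIRPα KO libraries differed from each other by less than 0.1 points. For 10 of the 15 genes the groups stood apart, where 42.8% of all genes tested did not overlap in CPM, and shares that sum to 100% do not move independently. The share was higher in every SIRPα KO library for mt-Atp6, mt-Co2, mt-Cytb, mt-Nd4l and mt-Nd5, and lower for mt-Co1, mt-Nd2, mt-Nd6, mt-Rnr1 and mt-Rnr2. These shares were not corrected for GC content and length. With copies added, that correction moved the fitted log2 fold changes unevenly, mt-Nd4l from 0.18 to 0.75 and mt-Nd5 from 0.07 to 0.02. Adding the copies was an alternative chosen after seeing the data, and it matters here. As shares of the reads on mitochondrial genes without the copies, the groups overlapped for mt-Co1, mt-Co2 and mt-Nd4l. They then stood apart for mt-Co3, which was lower in every SIRPα KO library and overlapped with the copies added. The mt-Co1 share with copies includes the reads of Gm29216, described below. mt-Cytb took 10.6%, 10.0% and 8.19% in WT and 13.7%, 12.6% and 12.3% in SIRPα KO, and mt-Nd6 took 0.718%, 0.747% and 0.902% in WT and 0.585%, 0.615% and 0.608% in SIRPα KO. The groups stood apart in these shares with WT replicate 1 included, which they did not in the total.

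**Figure D3:**
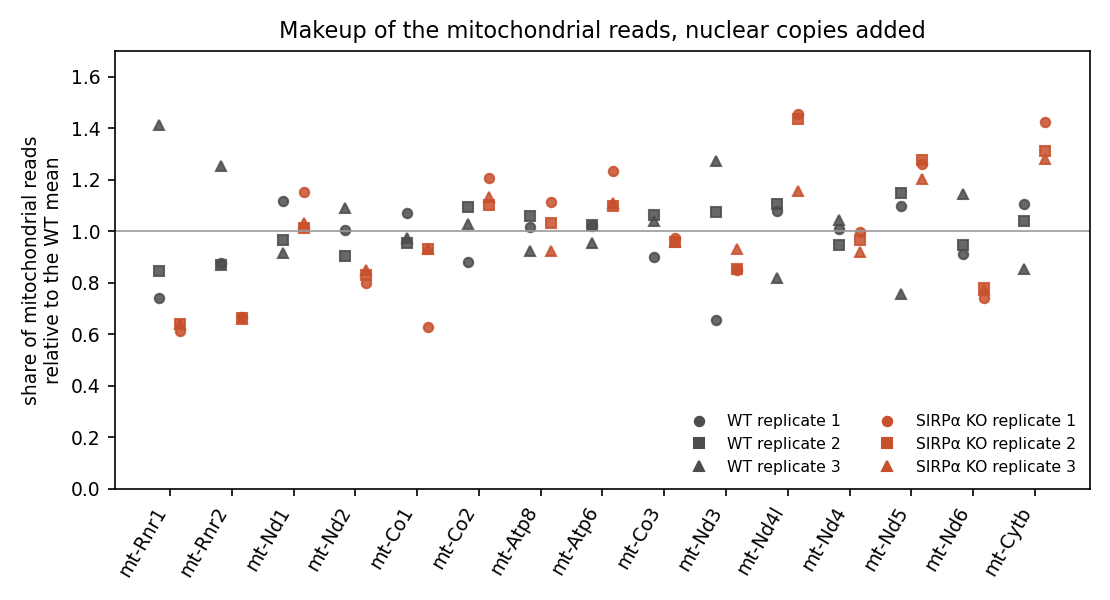
Share of the mitochondrial reads, copies included, taken by each of the 15 mitochondrial genes, divided by its WT mean (vertical axis, 1 is the WT mean), with libraries as points and the marker shape giving the replicate. The SIRPα KO points lie below the WT points for mt-Rnr1 and mt-Rnr2, with mean ratios of 0.630 and 0.662, and above them for mt-Cytb, with a mean ratio of 1.34.

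Reads of mitochondrial genes can also be counted on nuclear pseudogenes, stretches of mitochondrial DNA that were inserted into chromosomes. The table held 11 pseudogenes whose transcript matches a mitochondrial gene at 95% identity or more over at least 50% of either length, copies of 9 mitochondrial genes. Of these, 7 lie side by side on chromosome 1 within 4663 bases (mm10, 24611535 to 24616197), and 5 of those 7 are identical to the mitochondrial gene over the aligned bases. Another 3 lie on chromosome 2 and 1, Gm4076, on chromosome 13. The copies held 24.5% to 28.9% of the reads on mitochondrial genes and copies, and reads on identical bases cannot be assigned to a genome, so both counts are uncertain for these genes. Gm28437 had more reads than its source, with 57.0%, 59.1% and 55.3% of the summed reads of mt-Co3 and the copy in WT and 62.1%, 59.9% and 61.3% in SIRPα KO. So did Gm28661, with 54.75%, 55.33% and 55.18% of the reads of mt-Co2 and the copy in WT and 58.21%, 56.36% and 55.09% in SIRPα KO. Gm10222 held 74.4% to 87.2% of the reads of mt-Nd4l and the copy.

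Gm29216, a copy of the last 483 bases of mt-Co1 (bases 1063 to 1545 of its transcript, mm10 chromosome 1 from 24615706 to 24616197), was the 1 of 11 copies that passed the test, beside 11.7% of all genes. The stretch holding the only difference over the aligned bases, the substitution A1066T (base of mt-Co1, position in its transcript counted from 1 at the 5′ end, base of the copy), is shown with that base in capitals.
mt-Co1: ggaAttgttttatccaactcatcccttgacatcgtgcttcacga
Gm29216: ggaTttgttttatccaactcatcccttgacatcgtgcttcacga
Gm29216 was at 407, 568 and 1058 CPM in WT and 104, 176 and 193 CPM in SIRPα KO, with all SIRPα KO values below all WT values. It fell by 2.10 on the log2 scale (SE 0.37, adjusted p = 0.0185 by edgeR). The fall was 1.60 in size after the GC and length correction (log2 fold change -1.60, adjusted p = 0.0178), and the call was lost without SIRPα KO replicate 1, 2 or 3 (adjusted p = 0.0822 to 0.107) and with libraries of one code summed (adjusted p = 0.130). The copy took 27.6%, 24.5% and 40.3% of the reads of mt-Co1 and Gm29216 together in WT and 9.56%, 10.7% and 11.0% in SIRPα KO. A lower share in every SIRPα KO library was not particular to Gm29216. It was also seen for Gm13340 (4.20%, 3.69% and 5.86% of the reads of mt-Co1 and the copy in WT and 2.79%, 2.58% and 2.51% in SIRPα KO), for Gm28438 (33.04%, 33.14% and 31.55% with mt-Nd3 in WT and 27.0%, 24.3% and 28.3% in SIRPα KO) and for Gm4076 (0.966%, 0.790% and 0.842% with mt-Nd5 in WT and 0.480%, 0.558% and 0.657% in SIRPα KO). Gm28437 had the opposite order, and the groups overlapped for the other 6 copies. With the copies added, mt-Co1 had a log2 fold change of -0.53 (adjusted p = 0.179 by edgeR), the median of the 13 mRNAs was -0.24, and still none of them passed the test (beside 11.8% of all genes).

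Of the 19 nuclear machinery genes, 2 passed the test, both higher in SIRPα KO, which is 10.5% of them beside 11.7% of all genes tested. They were Lrpprc, a protein that binds and stabilises mitochondrial mRNAs, and Elac2, the nuclease that cuts the 3′ ends of mitochondrial tRNAs. The fitted value was above 0 for 15 members (48.4% of all genes) and below 0 for 4, with a median log2 fold change of 0.35 beside -0.03 for all genes tested. After the GC and length correction the median was 0.23, with 13 members above 0, and the same 2 members were called (beside 8.9% of all genes). For 10 of the 19 the groups stood apart (42.8% of all genes), 9 with SIRPα KO above (21.6%) and 1 with it below (21.2%). DESeq2 called 9 members, beside 26.9% of all genes, and the 7 it added were Tfam, Polrmt, Polg, Mtpap, Fastkd2, Trmt10c and Pnpt1.

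Lrpprc was at 74.9, 60.3 and 40.1 CPM in WT and 140, 118 and 124 CPM in SIRPα KO. The SIRPα KO values were all above the WT values, and WT replicate 3 was the lowest. Lrpprc rose by 1.12 on the log2 scale (SE 0.22, adjusted p = 0.0242 by edgeR), and by 0.81 after the GC and length correction (adjusted p = 0.0200). Elac2 was at 69.2, 76.8 and 60.4 CPM in WT and 131, 117 and 102 CPM in SIRPα KO, again without overlap. Elac2 rose by 0.76 (SE 0.15, adjusted p = 0.0236 by edgeR), and by 0.74 after the correction (adjusted p = 0.0191). Both calls were lost in the fits without SIRPα KO replicate 1, 2 or 3, where 0.112%, 0.12% and 0.12% of all genes were called (adjusted p = 0.0951 to 0.123 for Lrpprc and 0.0822 to 0.126 for Elac2) and with libraries of one code summed (0.133 and 0.131), where 0.0686% of all genes were called. Their log2 fold changes in those fits were 1.06 to 1.27 and 0.68 to 0.87.

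**Figure D4:**
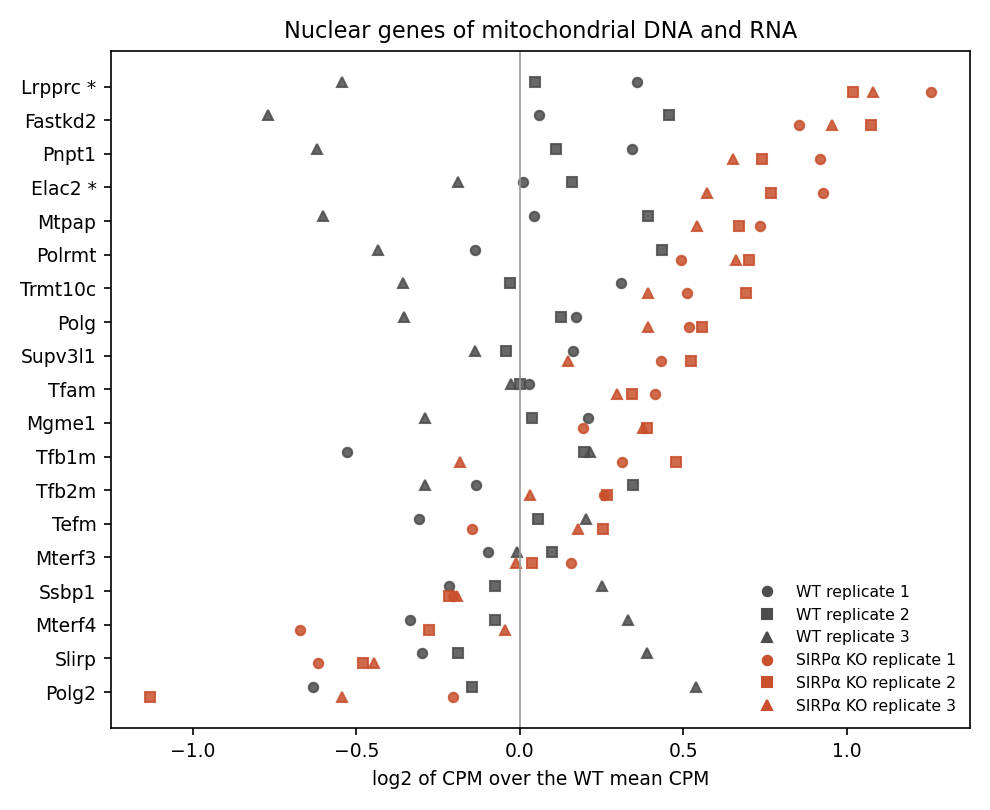
Log2 of each library's CPM over the WT mean CPM (horizontal axis, 0 is the WT mean) for the 19 machinery genes, ordered by fitted change, with the marker shape giving the replicate and an asterisk marking an adjusted p under 0.05. Lrpprc and Elac2 have all SIRPα KO points to the right of all WT points, Slirp has them all to the left, and WT replicate 3 (triangles) lies at an end of the WT points in 18 of 19 genes.

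Slirp, the RNA-binding partner with which Lrpprc forms a complex, had the opposite sign. It was at 53.0, 57.2 and 85.3 CPM in WT and 42.5, 46.8 and 47.9 CPM in SIRPα KO, with all SIRPα KO values below all WT values. Its fitted log2 fold change was -0.51 (SE 0.20, adjusted p = 0.127 by edgeR), which did not pass the test, and -0.74 after the GC and length correction (adjusted p = 0.0863). The CPM ratio of Lrpprc to Slirp was 1.41, 1.05 and 0.469 in WT and 3.28, 2.53 and 2.58 in SIRPα KO, a difference of mean log2 ratios of 1.65 (exact permutation test, two-sided, p = 0.1, the smallest that 3 against 3 allows). Compared per length, Slirp ranked first of the 19 members in WT (24.1 ± 6.51 CPM per kb, SD, n = 3) and was at 16.9 ± 1.05 CPM per kb in SIRPα KO, while Lrpprc was at 13.3 ± 3.98 and 28.9 ± 2.52 CPM per kb. Mtpap, which adds the tails, was at 49.2, 62.7 and 31.5 CPM in WT and 79.5, 76.1 and 69.5 CPM in SIRPα KO (log2 fold change 0.65, adjusted p = 0.108 by edgeR).

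The transcription members had fitted values above 0, and none passed the test. Tfam, which packages mitochondrial DNA and starts transcription, was at 47.6, 46.7 and 45.8 CPM in WT and 62.2, 59.2 and 57.3 CPM in SIRPα KO, without overlap and with little spread in either group. Its log2 fold change was 0.35 (SE 0.13, adjusted p = 0.102 by edgeR) and -0.03 after the GC and length correction. Tfam is among the genes that the study draws from these same libraries, so its direction here is not independent evidence. Polrmt, the mitochondrial RNA polymerase, was at 38.6, 57.5 and 31.5 CPM in WT and 59.8, 69.1 and 67.3 CPM in SIRPα KO (log2 fold change 0.62, adjusted p = 0.105 by edgeR, and 0.64 after the correction). Tfb2m, which opens the promoter with Polrmt, was at 33.4, 46.7 and 29.99 CPM in WT and 43.8, 44.1 and 37.5 CPM in SIRPα KO, and the elongation factor Tefm at 9.66, 12.4 and 13.8 CPM in WT and 10.8, 14.3 and 13.5 CPM in SIRPα KO. The groups overlapped for both.

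The SIRPα KO values were all above the WT values for 2 further members that process or degrade RNA, and neither passed the test. Trmt10c, a subunit of the nuclease that cuts the 5′ ends of mitochondrial tRNAs, was at 54.2, 42.7 and 34.1 CPM in WT and 62.3, 70.6 and 57.4 CPM in SIRPα KO (log2 fold change 0.54, adjusted p = 0.105 by edgeR). Pnpt1, a nuclease of the RNA degradosome, was at 60.9, 51.9 and 31.3 CPM in WT and 90.8, 80.2 and 75.5 CPM in SIRPα KO (log2 fold change 0.77, SE 0.24, adjusted p = 0.0713 by edgeR). Its helicase Supv3l1 was at 33.3, 28.9 and 27.1 CPM in WT and 40.1, 42.8 and 32.9 CPM in SIRPα KO, where the groups just overlapped. Fastkd2, an RNA-binding protein needed for assembly of the large ribosomal subunit, had the largest fitted value after Lrpprc. It was at 33.1, 43.6 and 18.6 CPM in WT and 57.4, 66.9 and 61.5 CPM in SIRPα KO (log2 fold change 0.96, SE 0.28, adjusted p = 0.0642 by edgeR) and 0.56 after the GC and length correction. Tfb1m, the rRNA methyltransferase, was at 5.46, 9.03 and 9.14 CPM in WT and 9.78, 11.0 and 6.95 CPM in SIRPα KO, and Mterf4 at 16.3, 19.6 and 25.9 CPM in WT and 12.9, 17.0 and 19.97 CPM in SIRPα KO. Mterf3 was at 38.8, 44.4 and 41.2 CPM in WT and 46.3, 42.6 and 41.1 CPM in SIRPα KO. For these 3 genes the groups overlapped, and the sign of Mterf3 (log2 fold change 0.06) turned under 4 of 27 alternatives.

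None of the 4 replication members passed the test. Polg, the catalytic subunit of the mitochondrial DNA polymerase, was at 147, 143 and 102 CPM in WT and 187, 192 and 172 CPM in SIRPα KO, without overlap (log2 fold change 0.49, adjusted p = 0.0787 by edgeR, and 0.13 after the GC and length correction). Its accessory subunit Polg2 was at 7.42, 10.4 and 16.7 CPM in WT and 9.97, 5.25 and 7.88 CPM in SIRPα KO, with overlap (log2 fold change -0.58, adjusted p = 0.312). The CPM ratio of Polg to Polg2 was 6.12 to 19.9 in WT and 18.8 to 36.6 in SIRPα KO, and these overlapped as well (exact permutation test, two-sided, p = 0.2). Ssbp1, which coats single-stranded mitochondrial DNA, was at 78.8, 86.9 and 109 CPM in WT and 79.4, 78.8 and 80.1 CPM in SIRPα KO. Mgme1, a nuclease of replication ends, was at 20.6, 18.4 and 14.6 CPM in WT and 20.5, 23.4 and 23.2 CPM in SIRPα KO.

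WT replicate 3, the one WT library with a code of its own, stood at an end of the WT range for most machinery members. It was the lowest WT library for 12 of the 19 (63.2%) and the lowest or highest for 18 (94.7%), against 40.9% and 79.4% of all genes tested. The 6 members for which it was highest included the 4 with a fitted value below 0. Without it, 5 members passed the threshold (beside 18.4% of all genes), and without WT replicate 2 it was also 5 (beside 16.3%). The median log2 fold change of the members was 0.35 in both fits.

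**Figure D5:**
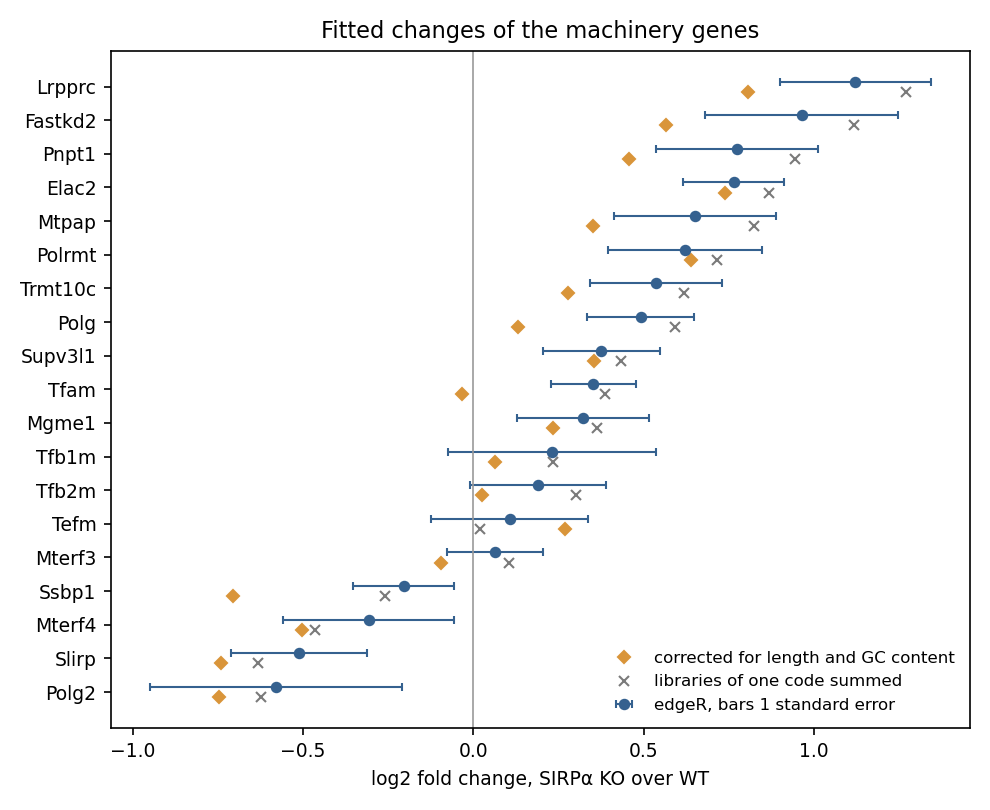
Log2 fold change of SIRPα KO over WT (horizontal axis) for the 19 machinery genes, as fitted by edgeR with 1 standard error (circles and bars), after the GC content and length correction (diamonds) and with libraries of one code summed (crosses). The corrected value of Lrpprc is 0.81 where the uncorrected one is 1.12, that of Tfam moves from 0.35 to -0.03, and the values with libraries summed lie near the uncorrected ones.

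Promoter windows, 250 bases before to 50 after the start of each gene, were found for 17 of the 19 members in RefSeq (GRCm38.p6). The motif CCGGAAG, bound by the ETS factor GABPA that is known for nuclear mitochondrial genes, was searched on both strands. It lay in 9 of the 17 windows, and in 8.86% of all 32851 RefSeq promoters. Those promoters were not limited to genes tested here, and the share among the genes tested was not taken. The 9 were Mterf4, Polg, Polg2, Polrmt, Slirp, Ssbp1, Tefm, Tfam and Trmt10c. They included all 4 members with a fitted value below 0, and neither of the called members. The motif of NRF1, another factor known for these genes, lay in 1 of the 17, that of Polrmt, and in 1.27% of all promoters. The windows of the partners Lrpprc and Slirp, whose levels had opposite signs, are shown with CCGGAAG or its reverse complement in capitals (chr17:84790737-84791036, minus strand, and chr12:87443646-87443945, plus strand).
Lrpprc: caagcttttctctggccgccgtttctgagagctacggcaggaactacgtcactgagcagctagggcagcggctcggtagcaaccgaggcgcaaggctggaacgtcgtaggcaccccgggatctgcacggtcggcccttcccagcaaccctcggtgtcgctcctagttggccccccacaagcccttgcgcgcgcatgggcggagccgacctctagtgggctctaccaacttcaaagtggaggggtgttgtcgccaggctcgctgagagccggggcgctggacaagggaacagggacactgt
Slirp: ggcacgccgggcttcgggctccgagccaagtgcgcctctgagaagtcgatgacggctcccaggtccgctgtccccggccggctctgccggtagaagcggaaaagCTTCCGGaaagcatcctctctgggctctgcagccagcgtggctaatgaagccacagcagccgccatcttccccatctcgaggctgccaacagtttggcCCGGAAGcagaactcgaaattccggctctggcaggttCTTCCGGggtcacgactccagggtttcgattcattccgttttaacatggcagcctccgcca
The motif lay 3 times in the Slirp window and 0 times in that of Lrpprc. A match of these letters is a description of the window and says nothing of binding.

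A wider list of 97 other genes of mitochondrial DNA maintenance, RNA modification and translation was read the same way, and 96 were tested. Of these, 8 were higher and 2 lower at an adjusted p under 0.05, 10.4% of the list beside 11.7% of all genes, and the median log2 fold change was 0.22. The largest rise was that of Prorp, the nuclease subunit that works with Trmt10c, at 14.3, 12.02 and 9.80 CPM in WT and 32.2, 29.7 and 20.9 CPM in SIRPα KO (log2 fold change 1.20, adjusted p = 0.0252 by edgeR, and 0.91 after the GC and length correction). Hsd17b10, another subunit of the same nuclease, fell by 0.61 on the log2 scale, from 107, 101 and 134 CPM in WT to 74.3, 71.4 and 78.0 CPM in SIRPα KO (adjusted p = 0.0350 by edgeR), and had a value of -0.19 after the correction (adjusted p = 0.244). The 3 subunits of this nuclease thus had fitted values of 1.20, 0.54 and -0.61. Rexo2, which degrades very short RNAs, fell by 0.52 (adjusted p = 0.0327).

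The other 7 genes of the wider list that rose follow. Gfm2, a ribosome recycling factor, rose by 0.99 on the log2 scale, Ptcd3, a protein of the small ribosomal subunit, by 0.87, and Rars2, the arginyl-tRNA synthetase, by 0.64. Nsun2, an RNA methyltransferase that also acts outside mitochondria, was at 321, 294 and 301 CPM in WT and 563, 542 and 494 CPM in SIRPα KO and rose by 0.80 (adjusted p = 0.00916 by edgeR). Fastkd5, an mRNA processing factor, rose by 0.73, Trnt1, which adds the CCA end of tRNAs, by 0.58, and the helicase Dhx30 by 0.51, with adjusted p values of 0.0215 to 0.0487 for these 3, Gfm2, Ptcd3 and Rars2. The GC and length correction ended the calls of Fastkd5 (adjusted p = 0.118 by edgeR), Trnt1 (0.0866) and Ptcd3 (0.0613). It added calls of Poldip2 (0.0374), Pus1 (0.0341), Qtrt1 (0.0461), Ptcd2 (0.0450) and Tufm (0.0444), all higher in SIRPα KO. In that fit 10 genes of the list were higher and 1 lower, beside 8.9% of all genes called. None of the 10 genes called without the correction was called without SIRPα KO replicate 1, 2 or 3, or with libraries of one code summed. With the replicate number as a block, 4 genes of the list passed.

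Of 14 regulators of mitochondrial gene expression, 13 were in the table and 12 were tested, of which 2 passed, both higher in SIRPα KO, 16.7% of them beside 11.7% of all genes. Gabpa, whose motif is given above, was at 36.3, 37.6 and 19.5 CPM in WT and 77.7, 55.4 and 66.3 CPM in SIRPα KO and rose by 1.09 on the log2 scale (adjusted p = 0.0393 by edgeR), with a value of 0.64 after the GC and length correction (adjusted p = 0.0665). Pprc1, a coactivator of the PGC-1 family, was at 133, 126 and 99.2 CPM in WT and 208, 235 and 174 CPM in SIRPα KO and rose by 0.79 (adjusted p = 0.0257), with 0.62 after the correction (adjusted p = 0.0247). Both calls were lost with libraries of one code summed (adjusted p = 0.141 for Gabpa and 0.130 for Pprc1 by edgeR) and without a SIRPα KO library (0.124 to 0.166 and 0.0811 to 0.132), and that of Gabpa also without WT replicate 1 (0.0567). Ppargc1b, a relative of Pprc1, was at 2.703 to 6.29 CPM in WT and 4.03 to 8.13 CPM in SIRPα KO, and Ppargc1a was at 0 in 5 of 6 libraries. The other 9 regulators did not pass the test. Their log2 fold changes ran from -0.35 for the deacetylase Sirt1 to 0.47 for the protease subunit Clpx, with 0.37 for Myc, 0.27 for Nrf1 and 0.20 for the protease Lonp1 that degrades Tfam. After the GC and length correction 3 regulators passed, beside 8.9% of all genes. These were Pprc1, Myc (0.48, adjusted p = 0.0232 by edgeR) and Clpp (0.64, adjusted p = 0.0209). DESeq2 called 4, beside 26.9% of all genes, and added Myc and Clpx to Gabpa and Pprc1.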

How the data were processed

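RNAseq libraries of cultured lung ILC2s came from WT (3) and SIRPα KO (3) mice. The authors used Partek to align the reads to mm10 with STAR and the annotation GENCODE M21 and deposited estimated counts per gene, not scaled for library size. The paper's methods give STAR 2.6.1d and Partek 7.0, and the submitters' processing notes give STAR 2.7.8 and Partek 10.0. How reads that match several genes were split, and whether strand was used, is not given in the sources used here. The table held 17831 genes, of which 274 were recorded singly and the others hold the same unit.

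After rounding, edgeR's filterByExpr (minimum count 10, minimum total 15) selected the genes, which were scaled by TMM (factors 0.989 to 1.007) and tested with edgeR's quasi-likelihood test on genotype alone, with Benjamini-Hochberg adjustment over 13623 genes and a threshold of 0.05. R 4.3.3, edgeR 4.0.16, limma 3.58.1, DESeq2 1.42.0, BLAST+ 2.17.0 and matplotlib 3.10.9 were used. Levels are CPM, and CPM per kb uses the longest annotated transcript. Shares of reads were compared with exact permutation tests over libraries. The correction for GC content and transcript length used splines with 5 degrees of freedom fitted on 8886 nuclear genes as an offset. Genes without an adjusted p in DESeq2 were not counted in its results. Nuclear copies were added to the mitochondrial genes as an alternative chosen after seeing the data. The procedures were tested on simulated data.

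The members and lists were chosen with earlier results of these data known. Every member is named with its values, with full statistics for an adjusted p under 0.05 and for the 3 largest fitted changes of each group, and genes of the wider list are named where they passed the threshold. Nuclear copies were matched by BLAST at 95% identity over at least 50% of either length, and those named were chosen after their values were seen. The replicate numbers did not pair the samples (correlations of same-numbered libraries -0.033 to 0.049). Nothing says whether libraries came from separate animals, so p values measure the spread between these libraries. The protein sequences of the members were not used here.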

Additional observations from a re-analysis of the deposited data

How the results depend on the processing

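Counts of calls moved with the libraries used and with the test. With 1 library left out at a time, over all genes 16 to 2606 passed the threshold in edgeR (1600 with all libraries), with 0 to 6 of the mitochondrial mRNAs (0), 0 to 5 of the machinery members (2) and 0 to 16 of the wider list (10). With the nuclear copies added, chosen after seeing the data, these ranges were 16 to 2621, 0 to 6, 0 to 5 and 0 to 16. The lowest counts of all genes (16, 17 and 17) and the 0 counts of machinery members and wider genes are those without a SIRPα KO library, and the 6 mitochondrial mRNAs those without WT replicate 1. With libraries of one code summed, 10 genes, no machinery member (0) and no wider gene (0) passed, also with copies added. DESeq2 called 3214 genes, 9 machinery members and 21 wider genes (3210, 9 and 21 with copies added). Restricting the test to genes with log2 CPM of 3 or more gave 4 machinery members.

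The replicate block gave 1118 genes, 0 mitochondrial mRNAs, 2 machinery members and 4 wider genes (10 without it), with medians of -0.13 for the mRNAs and 0.35 for the machinery, and changed the call of no member. The numbers are shared names only. The median of the mitochondrial mRNAs ran from -0.47 to 0.06 over all alternatives, with the values above 0 coming from the GC and length correction, and that of the machinery from 0.23 to 0.44. Upper quartile factors moved the median of all genes from -0.03 to -0.13, that of the mitochondrial mRNAs to -0.27 and that of the machinery to 0.25. Signs that turned under some alternative were those of mt-Atp6, mt-Atp8, mt-Co1, mt-Co2, mt-Cytb, mt-Nd1, mt-Nd3, mt-Nd4l, mt-Nd5, Tfam, Mterf3 and Tefm. The cause of these changes was not tested. Depth limits Polg2, Tfb1m, Tefm and mt-Nd4l, which had the fewest reads, and with 3 libraries a group no permutation p can go below 0.1.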

Other observations

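The mitochondrial mRNAs were also set against the nuclear subunits of the same respiratory complexes, as the ratio of their summed CPM per kb in each library, with nuclear copies added to the mRNAs. These ratios were not corrected for GC content and length, a correction that changed the nuclear subunits as given below. For complex III the ratio of mt-Cytb to its 9 nuclear subunits was 0.369, 0.664 and 0.424 in WT and 0.770, 0.743 and 0.742 in SIRPα KO, with all SIRPα KO values above all WT values (exact permutation test, two-sided, p = 0.1, the smallest that 3 against 3 allows). For complex IV it was 0.944, 1.87 and 1.37 in WT and 1.77, 1.85 and 1.94 in SIRPα KO, and for complexes I and V the ratios were 0.383 to 0.662 and 0.498 to 0.824 in WT and 0.632 to 0.655 and 0.732 to 0.793 in SIRPα KO. In these 3 complexes WT replicate 2 lay within or above the range of the SIRPα KO libraries (exact permutation tests, p = 0.3 for complex IV and 0.4 for the others, unadjusted over the 4 ratios).

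Of the nuclear subunits, 16 of 36 in complex I, 4 of 9 in complex III, 10 of 11 in complex IV and 8 of 17 in complex V were lower in SIRPα KO at an adjusted p under 0.05 by edgeR, beside 5.81% of all genes, and 1 of complex I was higher. In either direction, 6, 2, 5 and 7 of them were called after the GC and length correction. None (0 in each complex) was called with libraries of one code summed or in the fits without SIRPα KO replicate 1, 2 or 3, where 10, 16, 17 and 17 genes of the whole table were called. Their median log2 fold changes were -0.60, -0.60, -0.77 and -0.57, and after the GC and length correction -0.25, -0.07, -0.32 and -0.28. The correction thus took away more than 50% of the median in each of the 4 complexes.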
